A study of Homo sapiens with 12 samples.

Results

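Transcript levels of the circadian clock genes were followed in CCRF-CEM cells, a line from a human T-cell leukaemia, exposed for a short time to 3 compounds that stop growth. The genes were chosen by symbol from a list of 8, namely PER1, PER2, PER3, CRY1, CRY2, CLOCK, NR1D2 and DBP. A gene was kept where the arrays held a probe set that carried its symbol alone. That left 7 of the 8, among 14232 genes tested in all. PER3 was dropped, since its probe set also carries UTS2. Each of the 7 had a single such probe set.

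Treatment lasted 3 h, with AB61 used at 250 nM, tubercidin used at 550 nM and actinomycin D used at 1 nM, and control cells were left untreated. Each group had 3 arrays, labelled as biological replicates. AB61 is a 7-deazaadenosine with a thienyl group at position 7, tubercidin is the unsubstituted 7-deazaadenosine, and actinomycin D binds DNA and blocks transcription. Each dose is described as 5 times the IC50, so AB61 and tubercidin were matched by their IC50 and not by concentration. All cells grew in supplemented RPMI medium. No vehicle is named for the controls, and vehicle and compound effects cannot be told apart. No step that would synchronise clocks between cells is described, and the labels do not say whether replicates came from separate days, so p-values measure the spread between these samples.

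The circadian clock is a transcriptional feedback loop. CLOCK pairs with BMAL1 and switches on genes that carry E-boxes, among them the PER and CRY genes, whose proteins return to the nucleus and block CLOCK and BMAL1. In a side loop the REV-ERB receptors, NR1D1 and NR1D2, silence BMAL1 at ROR elements, and DBP, a PAR bZIP factor, drives D-box genes as an output. PER1 also behaves as an early response gene, induced within a short time by cAMP signalling through CREB and by glucocorticoids. In dividing cultures the cells hold mixed clock phases, and a bulk level averages over them.

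RefSeq promoter windows, 250 bases before to 50 after the annotated start on GRCh38.p14, were found for all 7 genes, 10 windows in all. The 3 shown here belong to PER1, the gene the results turn on, to PER2, its paralogue, and to NR1D2, 1 of whose 2 windows holds the most E-boxes and D-boxes. All lie 5′ to 3′ on the strand of the gene, with these motifs in capitals, searched on both strands: the E-box CACGTG, the related CACGTT, the D-box as TTATGTAA or TTACGTAA, and the full cAMP response element TGACGTCA. They are PER1 at chr17:8152355-8152654 on the minus strand, PER2 at chr2:238288561-238288860 on the minus strand and NR1D2 at chr3:23945871-23946170 on the plus strand.
PER1: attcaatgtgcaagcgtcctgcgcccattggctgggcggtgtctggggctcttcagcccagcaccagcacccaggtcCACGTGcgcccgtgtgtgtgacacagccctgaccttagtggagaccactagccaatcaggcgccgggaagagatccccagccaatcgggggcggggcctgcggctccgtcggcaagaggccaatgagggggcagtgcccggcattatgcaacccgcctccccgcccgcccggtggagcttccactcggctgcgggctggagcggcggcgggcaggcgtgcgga
PER2: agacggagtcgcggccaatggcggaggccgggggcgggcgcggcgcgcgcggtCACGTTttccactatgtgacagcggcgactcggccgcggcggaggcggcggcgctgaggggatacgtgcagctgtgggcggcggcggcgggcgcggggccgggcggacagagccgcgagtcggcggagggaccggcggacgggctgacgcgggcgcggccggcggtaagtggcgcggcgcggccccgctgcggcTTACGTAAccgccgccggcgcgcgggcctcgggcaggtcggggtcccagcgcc
NR1D2: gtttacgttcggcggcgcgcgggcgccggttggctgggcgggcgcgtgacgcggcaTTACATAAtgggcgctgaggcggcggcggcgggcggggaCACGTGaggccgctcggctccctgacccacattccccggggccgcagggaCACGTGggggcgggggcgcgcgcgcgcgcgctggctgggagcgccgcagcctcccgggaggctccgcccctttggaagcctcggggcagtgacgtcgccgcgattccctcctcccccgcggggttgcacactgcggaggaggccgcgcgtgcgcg

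The PER1 window held 1 E-box, starting at position -173 from the start site. The E-box occurs in 7.26% of the 35114 windows of the same length without an undetermined base. In PER2 the window held CACGTT, found in 5.34% of windows, and TTACGTAA, found in 0.125%. NR1D2 had 2 E-boxes and a D-box read on the other strand as TTATGTAA, a form present in 0.886% of windows. CACGTT also lay in the CRY1 window and in 1 of 2 windows each of CRY2 and CLOCK, whereas the DBP window held neither E-box form and no D-box. TGACGTCA, held by 1.85% of windows, was in none of the 10, while the shorter TGACG that it contains, held by 24.6%, was in windows of PER2, CRY1, CRY2, CLOCK and NR1D2 and not in those of PER1 or DBP. Of the other letters searched, the ROR core AGGTCA (13.8% of windows) lay in PER1 and CRY2, the glucocorticoid receptor core AGAACA (14.8%) in none, and the GC box GGGCGG (45.0%) in at least 1 window of each of the 7 genes. These matches describe the letters and are no evidence of binding.

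The arrays were alike in scale, with median levels between 6.58 and 6.72 on the log2 scale and correlations from 0.983 to 0.996 over all pairs. Of the 12 T-lymphoblast markers 11 were measured, and their mean level per array was 9.63 to 9.78 in AB61, 9.65 to 9.85 in tubercidin, 9.66 to 9.82 in actinomycin D and 9.72 to 9.84 in control cells. CD3D, CD3E and CD3G stood at 12.38, 11.41 and 11.23 over all arrays. The 4 fibroblast, 3 monocyte, 4 B-cell, 1 erythroid and 4 epithelial markers measured had mean levels per array of at most 6.78 in any group, and among them KRT8, a keratin, stood at 9.72. Array levels depend on the probes as well as on the RNA, so levels are compared here between arrays and not between genes. In these bulk samples fewer cells with a transcript and less of it per cell cannot be told apart.

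PER1, which encodes a repressor of the clock loop, fell when the 3 treatments were set together against control. Its log2 level was 7.13, 7.13 and 6.96 in the AB61 cultures, 6.62, 6.83 and 6.91 in the tubercidin cultures and 6.98, 6.92 and 6.97 in the actinomycin D cultures, against 7.31, 7.60 and 8.05 in the controls. All 9 treated arrays lay below all 3 control arrays. Taken over the 3 treatments, PER1 averaged 6.94 in treated and 7.65 in control cells, a log2 fold change of -0.71 (SE 0.13, 95% interval -0.99 to -0.44), or 1.64-fold lower. This passed in limma (adjusted p = 0.0244 over all genes), and PER1 was the 1 member of 7 that did, where 1.05% of all genes tested passed. That share rests on 149 genes, a count that was 6 without control replicate 2 and 263 without AB61 replicate 3. At an unadjusted p under 0.05 there were 2 members, PER1 and CLOCK, against 13.0% of all genes. Treated and control arrays did not overlap for 1 member, PER1, and for 4.53% of all genes. Genes with the treated arrays lower were 1.90% of all genes. The members were chosen with earlier results of these data known, so these counts are no test of the list.

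**Figure D1:**
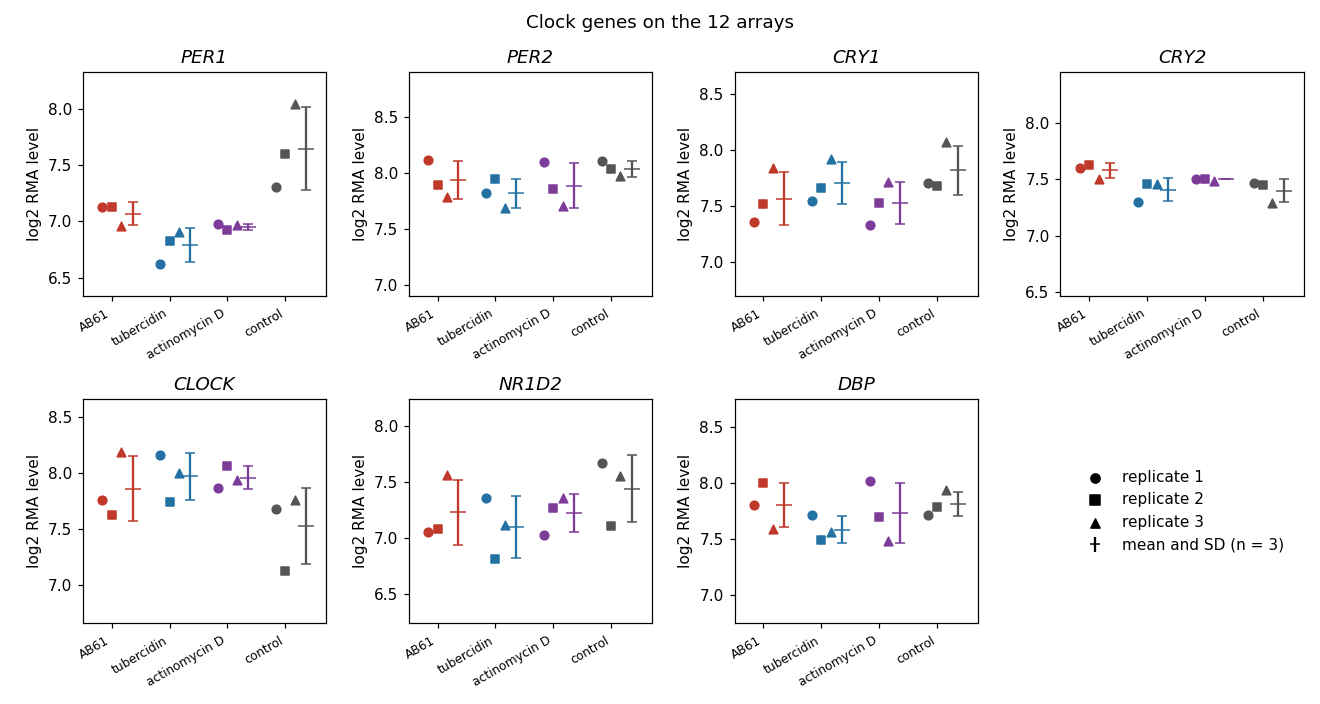
Log2 RMA levels of the 7 clock genes (y axis, each panel spanning 2 log2 units) on each array by group (x axis), with replicates as symbols and the mean and SD (n = 3) beside them. PER1 is the gene whose 9 treated arrays all lie below the control arrays, while the other 6 overlap with control in at least 1 treatment.

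The control cultures differed in PER1 more than the treated ones did. It averaged 7.07 ± 0.10 in AB61, 6.79 ± 0.15 in tubercidin, 6.95 ± 0.03 in actinomycin D and 7.65 ± 0.37 in control cells (SD, n = 3). The span of 0.74 between the lowest and highest control exceeded the 0.17, 0.29 and 0.06 within the treated groups. It also exceeded the size of the pooled change of -0.71 and of the AB61 and actinomycin D changes of -0.58 and -0.70. The fit gives each gene 1 spread shared by the 4 groups, so the pooled SE and interval understate the wider spread of the controls. Without control replicate 3, the highest, the pooled change was -0.52 (adjusted p = 0.107), and without control replicate 2 it was -0.74 (0.129). The call also ended without tubercidin replicate 1 (-0.69, 0.051) or actinomycin D replicate 2 (-0.71, 0.059), and when all 22011 probe sets were tested together (-0.71, 0.0617). Without control replicate 1 the change was -0.89 (0.00867). In each of these fits the change was below 0.

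**Figure D2:**
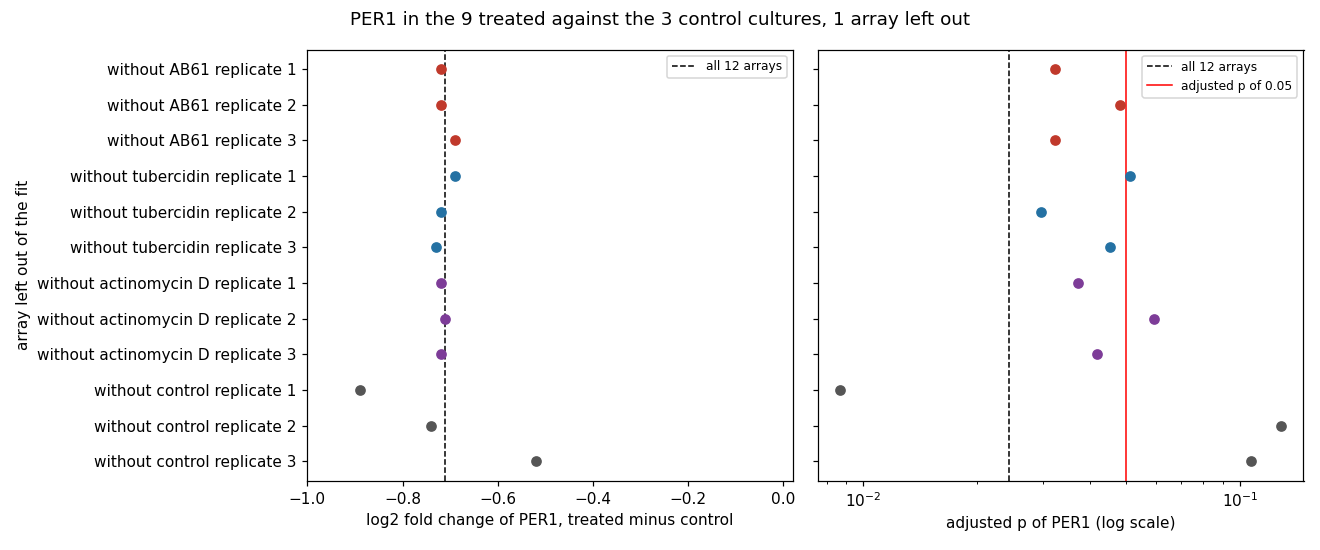
PER1 in the 9 treated against the 3 control cultures with 1 array left out of each fit (rows): the log2 fold change, treated minus control, on the left and its adjusted p on a log axis on the right. The change stays between -0.89 and -0.52, and 4 of the 12 fits lie beyond the adjusted p of 0.05 marked in red.

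Set against control 1 treatment at a time, PER1 did not pass. The 3 comparisons share the control arrays and are not independent of each other. After tubercidin it was 1.82-fold lower (log2 fold change -0.87, SE 0.16, 95% interval -1.20 to -0.53, adjusted p = 0.0571). After actinomycin D the change was -0.70 (SE 0.16, interval -1.03 to -0.36, adjusted p = 0.126). After AB61 it was -0.58 (SE 0.16, interval -0.91 to -0.24, adjusted p = 0.158). In limma fits of only the groups compared, the adjusted p was 0.213, 0.236 and 0.385 after tubercidin, actinomycin D and AB61. By the size of its change PER1 stood far out among the genes, with a larger absolute change in 0.239% of genes after tubercidin, 0.604% after actinomycin D and 1.76% after AB61. Members were chosen with earlier results of these data known, so this standing is a description and no independent support. The authors' deposited tables give the same changes, -0.87, -0.70 and -0.58, with unadjusted p-values of 7.83e-05, 0.000548 and 0.00238. Without control replicate 1 PER1 passed after tubercidin (-1.04, adjusted p = 0.0121) and after actinomycin D (-0.87, 0.038). Those fits called 33 and 25 of 14232 genes. Without control replicate 3 it stood at -0.67, -0.50 and -0.38 after tubercidin, actinomycin D and AB61 (adjusted p = 0.16, 0.27 and 0.294).

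The order of the PER1 group means, from low to high, was tubercidin, actinomycin D, AB61 and control. Neighbours in that order among the treated groups did not differ beyond their spread in limma. Tubercidin minus actinomycin D was -0.17 (interval -0.50 to 0.17) and AB61 minus actinomycin D was 0.12 (interval -0.22 to 0.46), both at an adjusted p of 1. The related compounds AB61 and tubercidin, which differ by the thienyl group, gave a difference of 0.29, AB61 being higher (interval -0.05 to 0.62, adjusted p = 0.793). The 3 AB61 arrays lay above the 3 tubercidin arrays for 2 members, PER1 and CRY2, where 6.02% of all genes were separated and 3.75% with AB61 higher. The tubercidin arrays lay below those of actinomycin D for the same 2 members, where 6.56% were separated and 4.36% with tubercidin lower. Between AB61 and actinomycin D 0 members were separated, against 4.41% of all genes. Of the 7 clock genes 0 passed in any direct comparison of treatments, and 0 did so at an unadjusted p under 0.05. Over all genes 0% passed in each, and 5.07%, 1.83% and 1.29% had an unadjusted p under 0.05 for AB61 against tubercidin, AB61 against actinomycin D and tubercidin against actinomycin D. The intervals still allow differences of the size given.

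The paralogue PER2, the other measured period gene, showed smaller differences. Its level was 8.12, 7.90 and 7.79 in AB61, 7.82, 7.95 and 7.69 in tubercidin and 8.10, 7.86 and 7.71 in actinomycin D cells, against 8.11, 8.04 and 7.98 in controls. The tubercidin arrays lay below the controls, and the other treated groups overlapped them. Fitted changes were -0.11, -0.23 and -0.15 after AB61, tubercidin and actinomycin D (SE 0.12 each, adjusted p = 0.775, 0.701 and 0.883), and the tubercidin interval ran from -0.49 to 0.04.

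Of the cryptochromes, the PER partners in repression, CRY1 had fitted changes below 0 and CRY2 at or above 0, none of which passed. CRY1 was at 7.36, 7.52 and 7.84 in AB61, 7.55, 7.66 and 7.92 in tubercidin and 7.33, 7.53 and 7.72 in actinomycin D cells, against 7.71, 7.68 and 8.07 in controls. Every treated group overlapped the controls, and in each of the 3 treated groups the highest array was replicate 3, as in control. The changes were -0.25, -0.11 and -0.29 (SE 0.16 each, adjusted p = 0.568, 0.96 and 0.652). CRY1 was lower in AB61 than in control in each of the 3 pairs of the same number. The same held for tubercidin, narrowly on replicate 2 at 7.66 against 7.68, and for actinomycin D. PER1 was likewise lower and CLOCK higher than the same-numbered control in every such pair. The share of all genes that did so was not counted. In the fit of all 12 arrays with the number as a block, the CRY1 changes after tubercidin and actinomycin D did not pass (SE 0.08 each, adjusted p = 0.7 and 0.137). With the number as a block the SE of the AB61 change was 0.08 in the fit of all 12 arrays (adjusted p = 0.161) and 0.11 in that of the 6 AB61 and control arrays (adjusted p = 0.371), so the change did not pass in either.

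CRY2 was at 7.60, 7.63 and 7.50 in AB61, 7.30, 7.46 and 7.46 in tubercidin and 7.50, 7.50 and 7.49 in actinomycin D cells, against 7.47, 7.45 and 7.29 in controls. The AB61 and actinomycin D arrays lay above the controls by narrow margins, and the tubercidin arrays overlapped them. Fitted changes were 0.17, 0.00 and 0.09 (SE 0.09 each, adjusted p = 0.501, 0.998 and 0.954). Scaling by the ribosomal protein genes of each array, which moved the median of all genes to -0.14, -0.20 and -0.25 in the 3 comparisons, turned them to -0.0040, -0.18 and -0.16.

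CLOCK, the activator of the loop, was the member with fitted changes furthest above 0. Its level was 7.76, 7.63 and 8.19 in AB61, 8.16, 7.74 and 8.0 in tubercidin and 7.87, 8.06 and 7.94 in actinomycin D cells, against 7.68, 7.13 and 7.76 in controls. The actinomycin D arrays lay above the controls, while AB61 and tubercidin overlapped them. The changes of 0.33, 0.44 and 0.43 (SE 0.18 each) did not pass (adjusted p = 0.504, 0.475 and 0.466), and the control span of 0.63 exceeded each of them. Over all treated cells the change was 0.40 (SE 0.15, interval 0.08 to 0.72, adjusted p = 0.231). It rested in part on control replicate 2, the lowest array, without which it was 0.20 (adjusted p = 0.786).

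NR1D2, the REV-ERB-beta repressor of BMAL1, stood at 7.05, 7.08 and 7.56 in AB61, 7.36, 6.81 and 7.12 in tubercidin and 7.03, 7.27 and 7.36 in actinomycin D cells, against 7.67, 7.11 and 7.55 in controls. All groups overlapped, and the control span of 0.56 exceeded each fitted change, which were -0.21, -0.34 and -0.22 (SE 0.19 each, adjusted p = 0.701, 0.69 and 0.899). Without control replicate 2 they were -0.38, -0.51 and -0.39.

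DBP, the output factor at D-boxes, stood at 7.80, 8.0 and 7.59 in AB61, 7.71, 7.49 and 7.56 in tubercidin and 8.01, 7.69 and 7.48 in actinomycin D cells, against 7.71, 7.78 and 7.93 in controls. The tubercidin arrays lay just below the controls, with 7.71 on the highest of them and on the lowest control to 2 decimals. The changes were -0.01, -0.23 and -0.08 (SE 0.14 each, adjusted p = 0.981, 0.789 and 0.999).

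**Figure D3:**
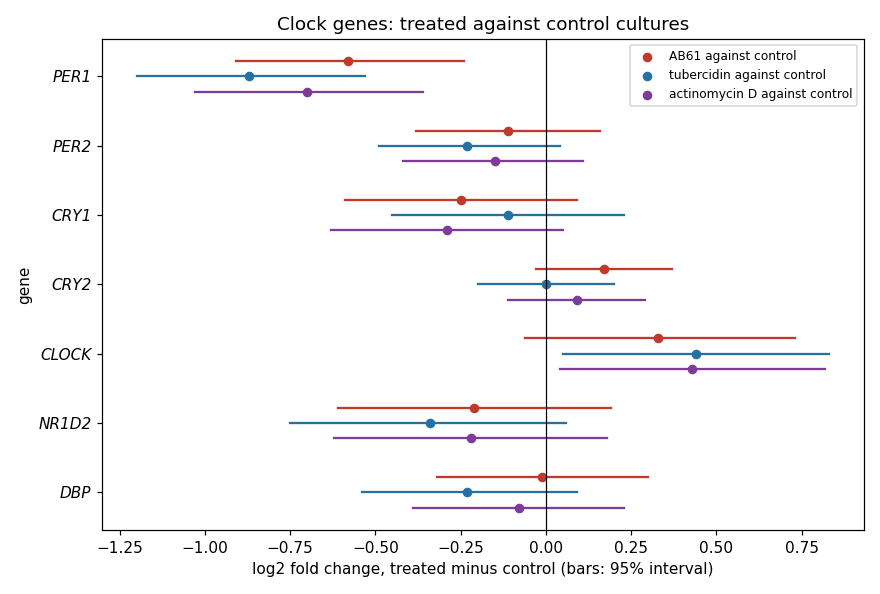
Log2 fold changes of the 7 clock genes (rows), treated minus control, after AB61, tubercidin and actinomycin D (colours), with 95% intervals as bars. The 3 PER1 intervals lie below 0, the tubercidin and actinomycin D intervals of CLOCK lie above 0, and those of the other 5 genes include 0.

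Taken by counts, 0 of the 7 passed in limma after AB61, tubercidin or actinomycin D, where 0.169%, 0.0913% and 0.119% of all genes did. Those shares moved when 1 array was left out, with 0 to 98, 2 to 33 and 1 to 25 genes called. AB61 and control arrays of the same number deviated together (r = 0.158, 0.355 and 0.268 over genes). Tubercidin and control arrays had 0.086, 0.241 and 0.421, so this was not particular to AB61. With the replicate number as a block, 0 members passed after AB61. That held in a fit of the 6 AB61 and control arrays, which called 11 genes. It also held in a fit of all 12, which called 193 genes (1.36%). In that fit of all 12, PER1 passed after tubercidin (adjusted p = 0.0247), where 0.815% of all genes did. After actinomycin D PER1 stood at 0.0551 there, with 0.913% of all genes called. Without the block, 1 member, PER1, had an unadjusted p under 0.05 after AB61, against 12.1% of all genes. After tubercidin there were 2 (against 8.80%), and after actinomycin D also 2 (against 9.39%), PER1 and CLOCK in both. Fully separated arrays were found for 2, 3 and 3 members, where 12.6%, 14.0% and 14.4% of all genes had them. After AB61 these were PER1 lower (6.18% of genes) and CRY2 higher (6.42%). After tubercidin PER1, PER2 and DBP were lower (6.58%). After actinomycin D PER1 was lower (7.22%) and CRY2 and CLOCK were higher (7.23%). The median change over the 7 was -0.11, -0.23 and -0.15, beside 0.041, -0.024 and 0.002 over all genes. An F-test for any difference between the 4 groups called 0 members, with PER1 at an adjusted p of 0.156, where it called 0.0843% of all genes, and at an unadjusted p under 0.05 it had 1 member and 7.33% of genes.

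The genes most like PER1 were found by the smallest root mean square difference over the 12 arrays, each gene centred on its own mean. They were PPP2R5B, a regulatory subunit gene of protein phosphatase PP2A, at 0.107, LPCAT4, a lysophospholipid acyltransferase gene, at 0.118, TNFRSF10D, a decoy receptor gene for TRAIL, at 0.135, MEF2D, a transcription factor gene, at 0.142, and PLAUR, the urokinase receptor gene, at 0.143. The difference for the median gene was 0.399, and that of a flat profile 0.367. PPP2R5B was at 6.78, 7.02 and 6.78 in AB61, 6.54, 6.56 and 6.78 in tubercidin and 6.78, 6.72 and 6.68 in actinomycin D cells, against 6.84, 7.46 and 7.91 in controls. Like PER1 it was highest on control replicate 3 and lowest among the controls on replicate 1, and its changes of -0.54, -0.77 and -0.68 did not pass (adjusted p = 0.295, 0.188 and 0.256). These genes were picked for their likeness, so it has no test. Among the clock genes DBP came closest to PER1 at 0.326 and CLOCK was furthest at 0.576.

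**Figure D4:**
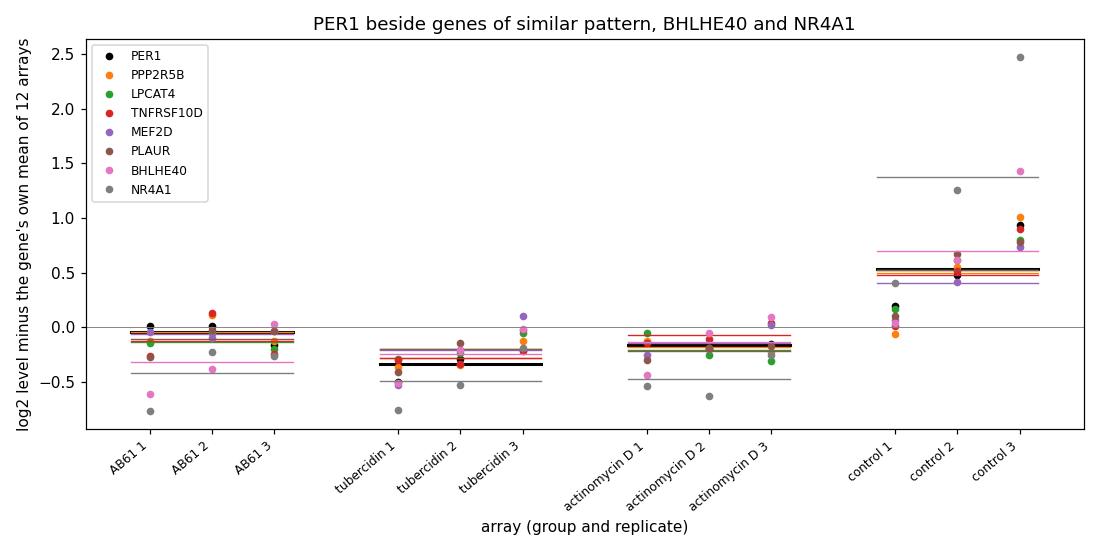
Log2 level minus the gene's own mean of the 12 arrays (y axis) on each array (x axis) for PER1 (black), the 5 genes of closest pattern, BHLHE40 and NR4A1; dots are arrays and lines are group means. For each gene shown the control mean is the highest of the 4, and control replicate 3 is the highest array.

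The rest of the clock machinery was described by a list of 30 further genes, of which 23 were measured. After AB61, tubercidin and actinomycin D 0 of the 23 passed in limma, and at an unadjusted p under 0.05 there were 1 higher and 4 lower, 1 and 1, and 1 and 1, where 12.1%, 8.80% and 9.39% of all genes were past it in either direction. Their median changes were 0.01, -0.07 and -0.06, close to those of all genes given above. BMAL1, the partner of CLOCK, stood at 0.04, -0.07 and -0.10, and NPAS2, which can replace CLOCK, at 0.01, -0.11 and 0.02. TEF and HLF, PAR bZIP relatives of DBP, lay between -0.13 and 0.16, and CIART, another repressor of CLOCK and BMAL1, between -0.01 and 0.03. Other genes of the list lay further from 0. RORA stood at -0.47, -0.40 and -0.45, SIRT1 at -0.44, -0.34 and -0.29 and TIMELESS at -0.32, -0.15 and -0.19. On the other side RORB stood at 0.28, 0.20 and 0.30 and CIPC at 0.33, 0.36 and 0.31.

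The furthest below 0 was BHLHE40, also known as DEC1, an E-box repressor that opposes CLOCK and BMAL1. Its level was 7.49, 7.72 and 8.13 in AB61, 7.59, 7.89 and 8.08 in tubercidin and 7.66, 8.05 and 8.19 in actinomycin D cells, against 8.14, 8.71 and 9.53 in controls. As for PER1, control replicate 3 was the highest array and replicate 1 the lowest control. The changes were -1.01, -0.94 and -0.83 (SE 0.29 each, adjusted p = 0.186, 0.268 and 0.359). NFIL3, a repressor at D-boxes, stood at -0.81, -0.44 and -0.57 (SE 0.30 each, adjusted p = 0.304, 0.837 and 0.643), with 8.42 on control replicate 3 and 7.04 and 7.27 on the other controls.

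**Figure D5:**
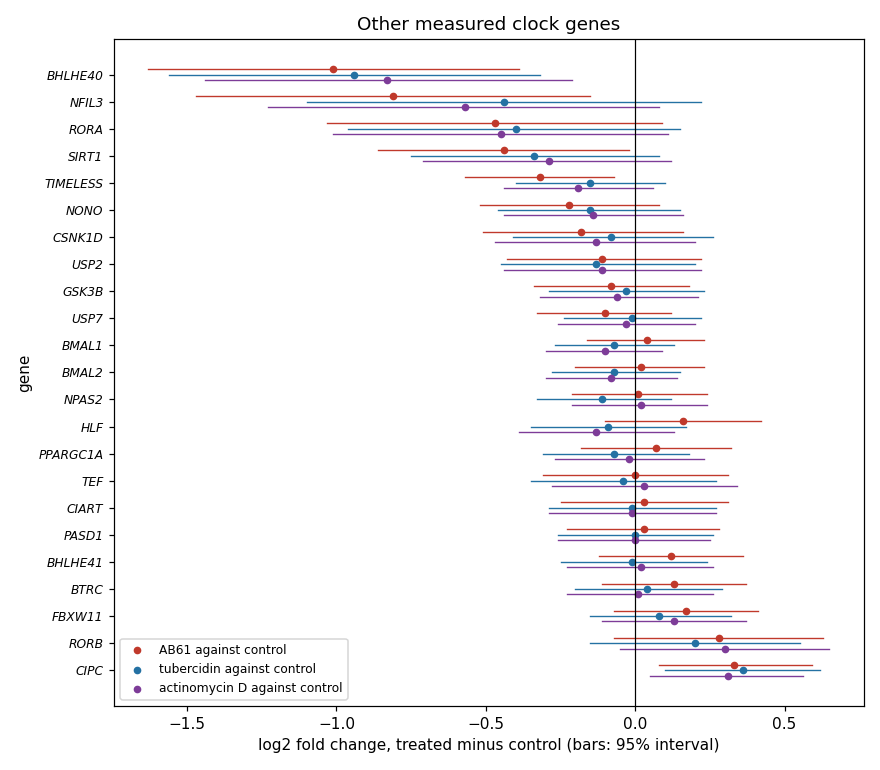
Log2 fold changes, treated minus control, of the 23 other clock genes measured (rows) after AB61, tubercidin and actinomycin D (colours), with 95% intervals as bars. BHLHE40 lies furthest below 0, at -1.01, -0.94 and -0.83, and most of the other genes lie near 0.

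Genes of the inputs to PER1 were described by further lists. In the cAMP and CREB list 14 of 19 genes were measured, 0 passed after any treatment, and 2, 1 and 1 were higher and 3, 3 and 3 lower at an unadjusted p under 0.05 after AB61, tubercidin and actinomycin D, beside the same 12.1%, 8.80% and 9.39% of all genes. The medians were -0.03, -0.02 and -0.05. NR4A1, a nuclear receptor gene induced by CREB, was at 6.55, 7.09 and 7.05 in AB61, 6.56, 6.79 and 7.13 in tubercidin and 6.78, 6.69 and 7.06 in actinomycin D cells, against 7.72, 8.57 and 9.79 in controls. It too was highest on control replicate 3. Its changes were -1.79, -1.87 and -1.85 (SE 0.37 each, adjusted p = 0.0768, 0.0929 and 0.101). It passed in each comparison without control replicate 1, where 9, 33 and 25 of 14232 genes were called. SIK1, a CREB-induced kinase gene that dampens CREB signalling, stood at -0.36, -0.46 and -0.42 after AB61, tubercidin and actinomycin D (SE 0.15 each, adjusted p = 0.369, 0.325 and 0.377). CREM, a CREB family gene, stood at -0.42, -0.01 and -0.28 (SE 0.31 each, adjusted p = 0.637, 0.997 and 0.976). Whether the spread of these genes between control cultures has a part in the PER1 result was not tested.

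Among 12 genes of the glucocorticoid list, the receptor gene NR3C1 included, 10 were measured and 0 passed. At an unadjusted p under 0.05 there were 2, 1 and 1 higher and 2, 3 and 1 lower, against 12.1%, 8.80% and 9.39% of all genes, with medians of -0.08, -0.18 and -0.16. The largest difference was in IL7R, the interleukin-7 receptor gene, at 7.90, 7.72 and 8.45 in AB61, 8.69, 8.22 and 8.25 in tubercidin and 8.15, 8.30 and 8.25 in actinomycin D cells, against 7.64, 7.01 and 6.82 in controls. Its treated arrays all lay above the controls, where 4.53% of all genes had no overlap in either direction. The IL7R changes were 0.86, 1.23 and 1.07 (SE 0.22 each, adjusted p = 0.137, 0.0571 and 0.101). It passed after tubercidin without AB61 replicate 3, where 20 of 14232 genes were called. It also passed after tubercidin and actinomycin D without control replicate 1, where 33 and 25 were called. NR3C1 stood at -0.51, -0.52 and -0.46 after AB61, tubercidin and actinomycin D (SE 0.22 each, adjusted p = 0.367, 0.489 and 0.54). SGK1, a serum- and glucocorticoid-induced kinase gene, stood at -0.29, -0.55 and -0.65 in the same order (SE 0.44 each, adjusted p = 0.829, 0.889 and 0.795).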

How the data were processed

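RNA of 12 CCRF-CEM cultures was measured on whole-transcript arrays, 3 per group. The authors deposited log2 RMA values per transcript cluster, and the submitters' processing notes name RMA, oligo and limma, and neither versions nor a genome build are given in the sources used here. The authors' deposited comparison tables hold log2 group means, log2 fold changes and unadjusted p-values. Of 22011 probe sets 14432 carried 1 gene symbol in the supplied platform annotation, 2408 several and 5171 none. The brightest probe set stood for a gene with several. RMA equalises the arrays, so a fall shared by every transcript would not show, and no detection filter was applied.

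Models were fitted in limma 3.58.1 (R 4.3.3) to 14232 genes, all 12 arrays and 4 groups, with eBayes (8 residual and 4.91 prior degrees of freedom), two-sided p-values and Benjamini-Hochberg adjustment over all genes of each contrast at 0.05. The pooled contrast sets the mean of the 3 treatments against control. The number of arrays limits the precision, and the median 95% interval reached 0.28 to either side. Same-numbered AB61 and control arrays deviated together (r = 0.158, 0.355 and 0.268 over genes). Every other pair of groups had a value under 0.1, so only AB61 and control were read as paired. Tubercidin and control (0.086, 0.241 and 0.421) and actinomycin D and control (0.204, 0.046 and 0.305) also had values above 0. The largest values were in AB61 and actinomycin D (0.596, -0.056 and 0.498). The cut of 0.1 therefore does not show that those groups were unpaired. The fit was tested on simulated data with independent noise and the same spread per gene in all groups. That test could not cover unequal spread between groups or arrays that deviate together. Alternatives covered scaling, dim genes, variance model, array weights, samples, replicate block, probe sets and each array left out. Named were all members, the list genes that passed or else the 2 largest changes, and the 5 genes closest to PER1. Some other list genes, among them BMAL1, NPAS2, TEF, HLF and CIART, were named outside this rule. Members and lists were chosen with earlier results of these data known. Figures used Python 3.11.15 and matplotlib 3.10.9.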

Additional observations from a re-analysis of the deposited data

How the results depend on the processing

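PER1 was the 1 clock member that passed in the pooled comparison. Its change stayed below 0 in all 9 other settings and all 12 fits without 1 array, ranging from -0.92 to -0.56 and from -0.89 to -0.52. The number of members that passed in the pooled comparison was 0 with all probe sets tested and 0 to 1 without 1 array. After tubercidin PER1 alone passed with dim genes left out (1 member, adjusted p = 0.0444). PER1 alone also passed there with the replicate block in all 12 arrays (1, adjusted p = 0.0247), where 0.815% of all genes were called. A blocked fit of only the tubercidin and control arrays gave an adjusted p of 0.07. Same-numbered arrays of these 2 groups had r = 0.086, 0.241 and 0.421, and the value under 0.1 kept them from being read as paired. After tubercidin and after actinomycin D, 0 to 1 passed without 1 array. The block changed no other call of a member. With array weights 3 members passed after AB61 (PER1, CRY1, NR1D2), 1 after tubercidin (PER1), 2 after actinomycin D (PER1, CLOCK), 1 in AB61 against tubercidin (PER2), 2 in AB61 against actinomycin D (PER2, CLOCK) and 4 in the F-test. The shares of all genes called there were 20.1%, 0.506%, 11.7%, 16.6%, 35.8% and 37.9%. That estimate stopped before it converged, and it gave actinomycin D replicate 2 a weight of 12.2 and AB61 replicate 3 one of 0.187.

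Directions turned for CRY2, DBP, PER2 and CRY1, none of which passed in the unweighted fit. With ribosomal protein centring CRY2 was -0.0040 after AB61, -0.18 after tubercidin, -0.16 after actinomycin D and -0.11 pooled. With array weights CRY2 was -0.03 after tubercidin, and DBP and PER2 were 0.04 and 0.03 after AB61, while DBP was 0.03 after AB61 with quantile normalization repeated. Without 1 array, CRY1 after tubercidin ranged from -0.21 to 0.02, CRY2 after tubercidin from -0.05 to 0.06, DBP after AB61 from -0.11 to 0.09 and DBP after actinomycin D from -0.23 to 0.04. In the cAMP and CREB list 1 gene, NR4A1, passed in each comparison with ribosomal protein centring. That setting called 14, 4 and 35 of 14232 genes after AB61, tubercidin and actinomycin D. Without 1 array the range in this list was 0 to 1. In the glucocorticoid list the range was 0 to 1 after tubercidin and actinomycin D. The cause of these shifts was not tested.

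Counts over all genes moved more. Against counts of 24, 13, 17 and 149 genes called after AB61, tubercidin, actinomycin D and pooled, 1, 4, 2 and 55 were called with all probe sets tested, 3, 6, 2 and 75 with median centring, 193, 116, 130 and 517 with the block in all arrays, and 2854, 72, 1669 and 1088 with array weights. Fits of only the groups compared called 0, 1 and 1. Without 1 array the counts ranged from 0 (AB61 replicate 1 or 2, or control replicate 2 or 3) to 98 (AB61 replicate 3) after AB61, from 2 (control replicate 2) to 33 (control replicate 1) after tubercidin, from 1 to 25 (control replicate 1) after actinomycin D, and from 6 (control replicate 2) to 263 (AB61 replicate 3) pooled.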

Other observations

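The following genes of the lists were chosen after their values were seen. CIPC, a protein partner that inhibits CLOCK, was at 7.95, 7.91 and 7.92 in AB61, 8.01, 8.11 and 7.75 in tubercidin and 8.10, 7.81 and 7.78 in actinomycin D cells, against 7.67, 7.47 and 7.64 in controls. All treated arrays lay above all controls, and the pooled change of 0.33 (SE 0.10) did not pass (adjusted p = 0.125). CREB1, the gene of the cAMP-responsive factor CREB, was at 9.95, 9.89 and 10.23 in AB61, 10.27, 10.05 and 10.23 in tubercidin and 9.98, 10.05 and 10.01 in actinomycin D cells, against 9.87, 9.70 and 9.73 in controls. Its pooled change was 0.31 (SE 0.09, adjusted p = 0.125), with no overlap between treated and control arrays. Of all genes 4.53% had no such overlap, in either direction.

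TSC22D3, a glucocorticoid-induced leucine zipper gene, averaged 6.68, 6.63 and 6.54 in AB61, tubercidin and actinomycin D cells, against 7.15 in controls. All treated arrays lay below all controls, as for 1.90% of all genes. The margin was narrow, since the lowest control, replicate 1 at 6.79, equalled the highest AB61 array to 2 decimals. The pooled change of -0.54 (SE 0.15) did not pass (adjusted p = 0.105). In the same pooled comparison NR4A1 fell by 1.84 (SE 0.31, adjusted p = 0.0186) and IL7R rose by 1.05 (SE 0.18, adjusted p = 0.0196), so the lists of PER1 inputs held genes that moved in opposite directions. BHLHE40 stood at -0.93 (SE 0.23, adjusted p = 0.0818).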
